A study of Mus musculus with 10 samples.

Results

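The miR-26 family of the mouse retina was examined across 10 small-RNA libraries. It comprised miR-26a and miR-26b with both arms of their hairpins: mmu-miR-26a-5p, mmu-miR-26b-5p, mmu-miR-26a-1-3p, mmu-miR-26a-2-3p and mmu-miR-26b-3p (the prefix mmu, for mouse, is left out hereafter). These 5 mature miRNAs were taken by name from the 1061 in the deposited table, and all 5 were found there. The libraries came from both retinas of 5 wild type C57BL/6J mice (numbers 61, 64, 65, 66 and 68), an inbred laboratory strain, at postnatal day 34. Every mouse had carried a goggle with a -20 D lens, which is used to make an eye myopic, over 1 eye from postnatal day 24 for 10 days, and its fellow eye had no lens. Which eye wore the lens is not stated in the labels, so the 5 right retinas were set against the 5 left ones and neither side stands for the treatment. miRNAs of retinal cells were looked up, though without libraries of another tissue they cannot prove its identity. The photoreceptor miR-182-5p was at 9840430 normalised reads, the highest value, in every library and miR-183-5p at 689415. The photoreceptor miR-96-5p ranged from 20982.5 to 49232.7. The neuronal miR-124-3p was at 76000 to 88655 normalised reads and miR-9-5p at 41158 to 63868.

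The miR-26 family is broadly expressed and is known as a brake on growth. Its 5p arms guide the silencing complex to messenger RNAs through bases 2 to 8, the seed, and the chromatin enzyme EZH2 is among the best known targets. All 3 hairpins are carried by introns of genes for small C-terminal domain phosphatases, Ctdspl, Ctdsp2 and Ctdsp1, which act on RNA polymerase II and help the repressor REST to keep neuronal genes silent. The miRNA and its host can therefore be made from the same primary transcript, and miR-26b is known to repress such a phosphatase during neurogenesis.

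The mature sequences are shown because they decide which members can be told apart by sequencing and which share targets. They are those of RefSeq for GRCm38.p6, written 5′ to 3′, with the seed in capitals.
miR-26a-5p: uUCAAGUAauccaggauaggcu
miR-26b-5p: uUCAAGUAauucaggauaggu
miR-26a-1-3p: cCUAUUCUugguuacuugcacg
miR-26a-2-3p: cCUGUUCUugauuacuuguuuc
miR-26b-3p: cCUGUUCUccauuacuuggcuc
The 5p arms of miR-26a and miR-26b share 1 seed and are the same at 19 of 21 compared positions, differing by C11U and C21U (miR-26a base first, positions counted from 1 at the 5′ end). The 3p arms split into 2 seeds. miR-26a-2-3p and miR-26b-3p have the same one, and miR-26a-1-3p differs from both in the seed by A4G (miR-26a-1-3p base first).

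The hairpins show where these arms sit. In the RefSeq precursors for GRCm38.p6 below, the mature arms are in capitals.
Mir26a-1: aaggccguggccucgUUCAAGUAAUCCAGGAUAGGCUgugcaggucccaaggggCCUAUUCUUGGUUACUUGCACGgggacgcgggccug
Mir26a-2: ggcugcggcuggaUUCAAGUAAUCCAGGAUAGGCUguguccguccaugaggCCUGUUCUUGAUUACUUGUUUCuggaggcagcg
Mir26b: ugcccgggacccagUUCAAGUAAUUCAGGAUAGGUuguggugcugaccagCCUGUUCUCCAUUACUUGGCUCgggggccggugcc
Mir26a-1 lies on the plus strand of chr9:119031796-119031885, in intron 5 of the principal transcript of Ctdspl. Mir26a-2 lies on the plus strand of chr10:126995530-126995613, in intron 5 of the principal transcript of Ctdsp2, and its last base is the first base of a shorter transcript of that gene. Mir26b lies on the plus strand of chr1:74394310-74394394, in intron 4 of Ctdsp1. Each hairpin is on the strand of its host (GENCODE M21, GRCm38). The 5p arm of miR-26a has the same sequence in both of its hairpins, and the deposited table lists it once, at the Ctdspl copy. Reads of miR-26a-5p therefore cannot be divided between Ctdspl and Ctdsp2, whereas each 3p arm belongs to 1 locus.

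The family spanned the whole range of the retinal profile. The 5p arms were among the most abundant retinal miRNAs and the 3p arms ranged from moderate to barely listed. This order is one of normalised reads and not of molecules, because ligation of adapters depends on the sequence. miR-26a-5p, the leading member, was at 280072 normalised reads in all 10 libraries, a share of 1.62% and rank 6 of the 1061. miR-26b-5p followed with a mean of 63745 ± 13121 (SD over 10 libraries) and a range from 51974 to 81300. miR-26b-3p was at 243 ± 44.1 normalised reads, with a range from 202 to 336. miR-26a-2-3p was at 9.91 ± 5.20, with a range from 1.60 to 18.3. miR-26a-1-3p averaged 0.367 ± 0.564 normalised reads and was listed at 0 in 6 libraries. The ranges of these 5 members did not overlap.

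**Figure D1:**
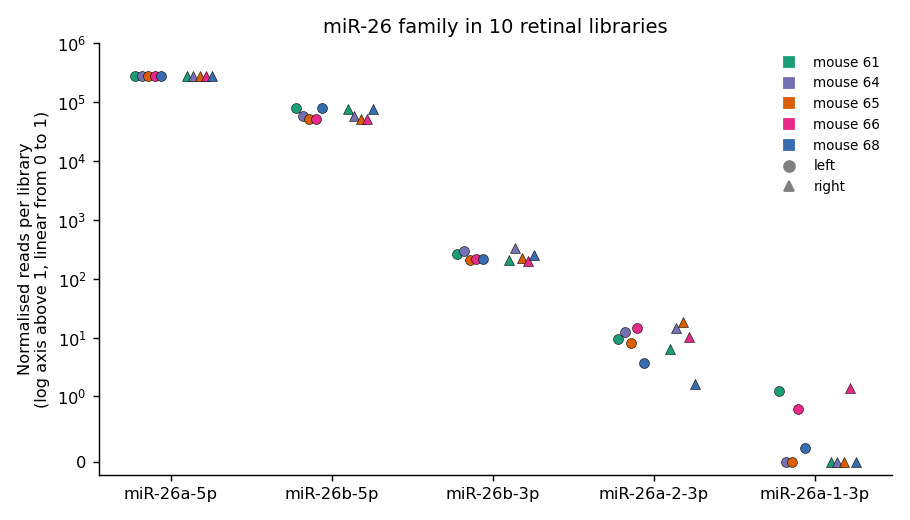
Normalised reads (vertical axis, logarithmic above 1 and linear from 0 to 1) of the 5 miR-26 members in the left (circles) and right (triangles) retina of 5 mice (colours). miR-26a-5p is at 280072 in every library, miR-26b-5p lies between 51974 and 81300, and miR-26a-1-3p is listed at 0 in 6 of 10 libraries.

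miR-26a-5p kept rank 6 in every library, and a rank among the abundant miRNAs has 1 set value in these files, as quantile normalisation gives. Rank 5 is worth 1.30 times rank 6, and rank 6 is worth 1.38 times rank 7. A difference in miR-26a-5p that left it between its neighbours would not appear in these values. Above it stood let-7a-5p, with 403943 ± 21171 normalised reads, and miR-181b-5p, with 373816 ± 21171 (SD over 10 libraries), both of which exceeded miR-26a-5p in 10 of 10 libraries. Below it stood miR-204-5p, at 203500 in every library, and then miR-127-3p and miR-30a-5p with the same mean of 141170. miR-26a-5p exceeded each of these in 10 of 10 libraries.

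The neighbours of miR-26b-5p were closer. miR-124-3p was above it, with a mean of 82241 normalised reads, in 9 libraries; the exception was the left retina of mouse 61. miR-181c-5p (65037 ± 7536 normalised reads, SD over 10 libraries), miR-191-5p (63188 ± 12670) and miR-27b-3p (62720 ± 1482) had means within the spread of miR-26b-5p. Each was below miR-26b-5p in 4 libraries, and for all of them miR-26b-5p was higher in both eyes of 2 mice and lower in both eyes of 3 mice.

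By seed, miR-26a-5p and miR-26b-5p together held 343817 normalised reads. Only these members of the table carried their seed, among the 909 miRNAs with a RefSeq sequence. The sum placed this seed at rank 5 of 785, after the seeds led by miR-182-5p, let-7a-5p, miR-183-5p and miR-181a-5p and before the seed of miR-204-5p. Its share of the normalised total ran from 1.92% in both retinas of mice 65 and 66 to 2.09% in the left retinas of mice 61 and 68. miR-26b-5p supplied 15.7% of this sum in mice 65 and 66, 17.0% in mouse 64, and 21.3% to 22.5% in mice 61 and 68. The seed of miR-26a-2-3p and miR-26b-3p occurred in 1 other miRNA, miR-6932-3p, which had a mean of 0.892 normalised reads and was listed at 0 in 3 libraries. No other miRNA had the seed of miR-26a-1-3p.

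Right and left retinas were compared to ask whether any miR-26 member differed by side. Because the side of the lens is not given, this comparison says nothing about the lens. No member passed the test. Of the 5 members, 3 had a mean of at least 10 normalised reads and were tested. miR-26a-2-3p, with a mean of 9.91, fell just outside this limit, and miR-26a-1-3p lay far below it. Among the 3 tested, miR-26a-5p had the same value in every library, so it could not pass. In limma with mouse as a block, 0 of the 3 tested members and 0 of all 484 miRNAs (0% called) were past an adjusted p of 0.05, and 12 of the 484 (2.48%) were at an unadjusted p under 0.05, none of them a miR-26 member. The right retina of mouse 65 stood apart in the summed lens, cornea and epithelial miRNAs, mostly miR-184-3p. Without this mouse, 63 miRNAs were at an unadjusted p under 0.05 by limma and again 0 passed. The smallest adjusted p by limma over all miRNAs was 0.958.

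In mouse 61, miR-26b-5p had 81300 normalised reads in the left eye and 76000 in the right eye, and mouse 68 had the same values. It was at 57479 in both retinas of mouse 64 and at 51974 in both retinas of mice 65 and 66. The sides overlapped, and 2 mice were lower on the right by 1 rank while 3 mice had equal values. The log2 fold change, right minus left on the log2(value + 1) scale, was -0.04 (SE 0.02), with a 95% interval from -0.10 to 0.02 and an adjusted p by limma of 0.958. With a GC trend removed from each library, the direction turned to 0.04. Its values move in steps of ranks, so a difference smaller than a step is not seen, however narrow this interval.

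miR-26b-3p, the opposite arm of the Ctdsp1-hosted hairpin, had 263 normalised reads in the left eye of mouse 61 and 211 in its right eye. The left and right values were 296 and 336 in mouse 64, 207 and 226 in mouse 65, 216 and 202 in mouse 66, and 219 and 257 in mouse 68. It was higher on the right in 3 mice and lower in 2, and the sides overlapped. Its log2 fold change was 0.02 (SE 0.11), with a 95% interval from -0.23 to 0.28 and an adjusted p by limma of 1. For comparison, the median over the 484 miRNAs was -0.01, with 5th and 95th percentiles of -0.26 and 0.33.

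**Figure D2:**
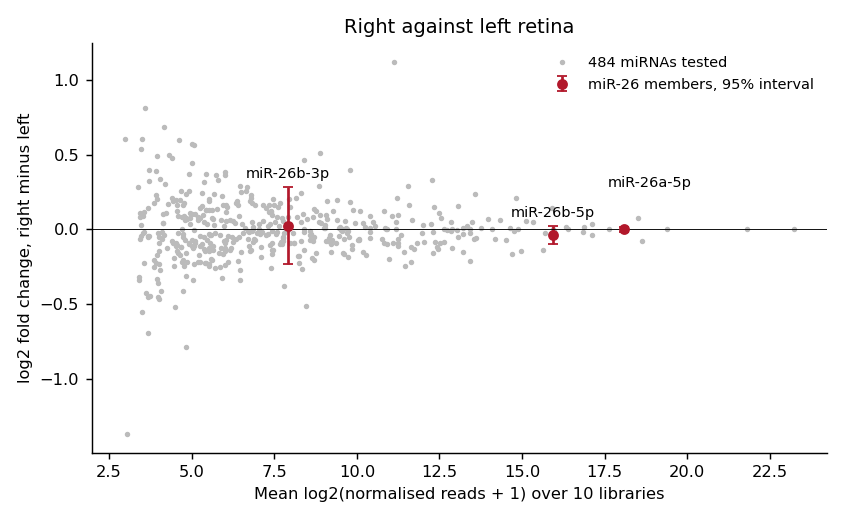
log2 fold change, right minus left retina (vertical axis), against the mean log2(normalised reads + 1) over 10 libraries (horizontal axis) for the 484 miRNAs tested (grey) and the 3 tested miR-26 members (red, bars are 95% intervals). All 3 intervals include 0, and that of miR-26a-5p comes from the spread of other miRNAs, as its own values do not vary.

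The 3p arms of miR-26a tell its loci apart. miR-26a-2-3p, from Ctdsp2, had left and right values of 9.37 and 6.40 normalised reads in mouse 61, 12.4 and 14.5 in mouse 64, 7.94 and 18.3 in mouse 65, 14.5 and 10.3 in mouse 66, and 3.70 and 1.60 in mouse 68. It was higher on the right in 2 mice and lower in 3, and both libraries of mouse 68 were the lowest of the 10. miR-26a-1-3p, from Ctdspl, was above 0 in 4 libraries, at 1.25 normalised reads in the left eye of mouse 61, 0.800 and 1.40 in both eyes of mouse 66 (left first), and 0.215 in the left eye of mouse 68. It was listed at 0 in the other 6 libraries, and so low a value is no proof of detection. Without the limit on low values, the adjusted p by limma for right against left was 0.973 for miR-26a-2-3p and 0.950 for miR-26a-1-3p.

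The Ctdsp2 arm exceeded the Ctdspl arm in every library. The log2 ratio of miR-26a-2-3p to miR-26a-1-3p, with 1 added to each value, was 2.89 ± 0.90 (SD over 5 mice, each the mean of both eyes). It was above 0 in 5 of 5 mice, from 1.67 in mouse 68 to 3.85 in mouse 64 (exact sign-flip test, two-sided, p = 0.063, the smallest that 5 mice allow; adjusted p 0.188 over the 3 ratio tests). With 0.1 in place of 1 the mean was 5.13, and with 10 it was 0.90, so its size depends on the added value. The arms differ in sequence, on which adapter ligation depends, so their ratio does not measure the output of the loci. The right and left retinas did not differ in this ratio beyond the spread between mice, with a difference of 0.11 ± 0.83 (SD, n = 5 mice; exact sign-flip test, two-sided, p = 0.75).

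The bias between the arms differed among the hairpins. In the miR-26b hairpin, the 5p arm exceeded the 3p arm 309-fold in the left and 361-fold in the right retina of mouse 61. The left and right ratios were 195 and 171 in mouse 64, 251 and 230 in mouse 65, 240 and 257 in mouse 66, and 372 and 295 in mouse 68. Mouse 64 had the lowest ratio in both eyes. On the log2 scale the ratio was 8.05 ± 0.36 in left eyes and 7.99 ± 0.40 in right eyes (SD, n = 5), a difference of -0.06 ± 0.22 (SD, n = 5 mice; exact sign-flip test, two-sided, p = 0.563; adjusted p 0.75).

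Set against 89 hairpins with both arms listed and a leading arm of at least 1000 normalised reads, miR-26b was in the middle. Only hairpins whose arms matched RefSeq by name are counted, so some abundant ones, such as that of miR-124, are left out. Hairpins that share an arm are each counted. Its log2 ratio from the mean levels was 8.03, the median of the 89, and the 5p arm led in 59 of them. The log2 ratio of miR-26a-5p to miR-26a-2-3p was 14.6 and that to miR-26a-1-3p was 17.6. Both count all reads of miR-26a-5p for 1 locus, and miR-26a-1-3p is listed at 0 in 6 libraries, so neither ratio has a firm place among the 89. These ratios are descriptions over 10 libraries, and ligation bias enters each of them.

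miR-26b-5p differed between mice far more than between the eyes of a mouse. Its mean over both eyes was 78650 normalised reads in mice 61 and 68, 57479 in mouse 64 and 51974 in mice 65 and 66. No library of mouse 61 or 68 overlapped with one of the other mice, while mice 61 and 68 had the same pair of values and mice 65 and 66 were identical. The range of the mouse means was 0.60 on the log2 scale, against a residual SD between eyes of 0.04. Over the 484 tested miRNAs the medians of these were 0.46 and 0.23. The SD of the mouse means was smaller in 76.0% of them, so miR-26b-5p stood out more by its small residual than by its spread between mice. The 2 eyes of a mouse differed by 0.04 on average, whereas a left and a right retina over all 120 pairings differed by 0.30.

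In the same limma fit, the mouse term of miR-26b-5p had an adjusted p of 0.00167, the smallest of the 484 miRNAs. This term was examined after the values were seen. It passed for 8 of the 484 miRNAs (1.65%), and for 1 of the 3 tested miR-26 members, of which miR-26a-5p, with identical values, could not pass. The count was 3 without mouse 68, 4 without mouse 64 or 66 and 5 without mouse 61 or without the mean-variance trend. It rose in other runs, up to 12 without the miRNAs of identical values. The call of miR-26b-5p was lost without the mean-variance trend in limma (adjusted p 0.0562) and when a trend with GC content was removed from each library (adjusted p 0.0832). In these runs the range of its mouse means stayed at 0.60 and 0.59 on the log2 scale, in the same order. The labels do not say that the mice differed in treatment, litter or batch, and p-values here measure differences between mice against the spread between 2 eyes, 1 of which had the lens. Equal ranks in both eyes give a residual of 0, so the spread behind this test is coarse. limma draws each SD towards that of miRNAs of like abundance, and miR-450a-5p, a low miRNA named after its values were seen, had an adjusted p of 0.210 with a mouse SD of 0.34 and a residual SD of 0.02.

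miR-26b-3p had another order of mice. Its means over both eyes were 316 normalised reads in mouse 64, 238 in mouse 68, 237 in mouse 61, 217 in mouse 65 and 209 in mouse 66. Mouse 64 was above all other mice in both eyes. The range of 0.59 on the log2 scale was as wide as that of miR-26b-5p, but the eyes of a mouse differed by 0.19 on average, and the mouse term had an adjusted p by limma of 0.364. Without mouse 64 the range was 0.18. Over the 10 libraries, which come from 5 mice, the arms of the miR-26b hairpin had a Pearson r of 0.10 on the log2 scale. Among 48 hairpins with both arms matched to RefSeq by name and at a mean of at least 100, the median r between arms was -0.03, with quartiles of -0.28 and 0.54. miR-26a-2-3p had an r of -0.70 with miR-26b-5p, with its lowest values in mouse 68. These correlations are descriptions of libraries that share mice and a normalisation.

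**Figure D3:**
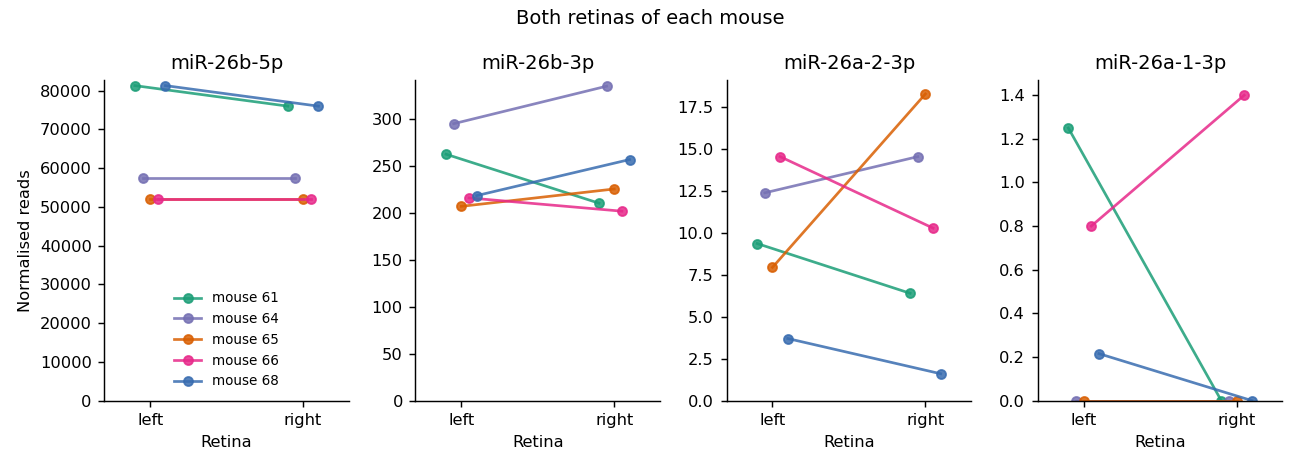
Normalised reads (vertical axes, from 0) of the 4 members whose values vary, in the left and right retina of each of 5 mice; a line joins the eyes of a mouse, and mice are shifted sideways so that equal values can be seen. For miR-26b-5p the lines of mice 61 and 68 (81300 and 76000) lie above those of mouse 64 (57479) and of mice 65 and 66 (51974), while the lines of the 3p arms cross.

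**Figure D4:**
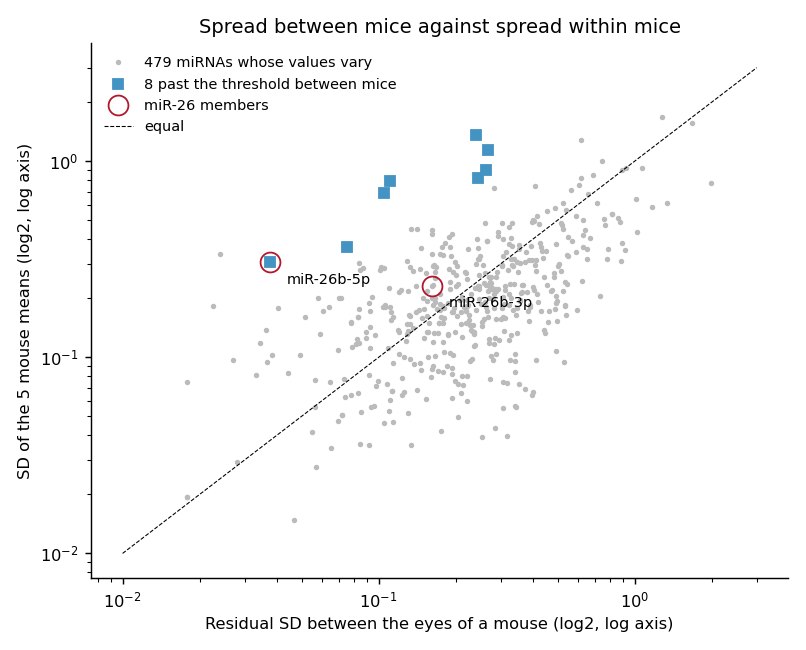
SD of the 5 mouse means (vertical axis, log2 units, log axis) against the residual SD between the eyes of a mouse (horizontal axis, log2 units, log axis) for the 479 miRNAs of those tested whose values vary; blue squares are the 8 past an adjusted p of 0.05 for the mouse term, red rings the miR-26 members. miR-26b-5p lies at a mouse SD of 0.31 and a residual SD of 0.04, and miR-26b-3p at 0.23 and 0.16.

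In the other 7 miRNAs that passed between mice, mice 61 and 68 had the highest or the lowest means. miR-99a-5p, a member of the miR-99 family, had its highest means in mice 61 and 68, with 2922 and 2824 normalised reads. Its mean of 2664 in mouse 64 was close to these, unlike that of miR-26b-5p, and its means were 1777 in mouse 65 and 1753 in mouse 66. The remaining 6, miR-128-3p, miR-322-3p, miR-1964-3p, miR-329-5p, miR-296-3p and miR-671-5p, had their lowest means in mice 61 and 68. miR-128-3p, a miRNA of neurons, was at 2078 and 1762 normalised reads in mice 61 and 68 and at 4496, 4684 and 4424 in mice 64, 65 and 66. Pearson's r with miR-26b-5p over the 10 libraries ran from -0.97 to -0.89 for these 6. These miRNAs were named after their values were seen.

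**Figure D5:**
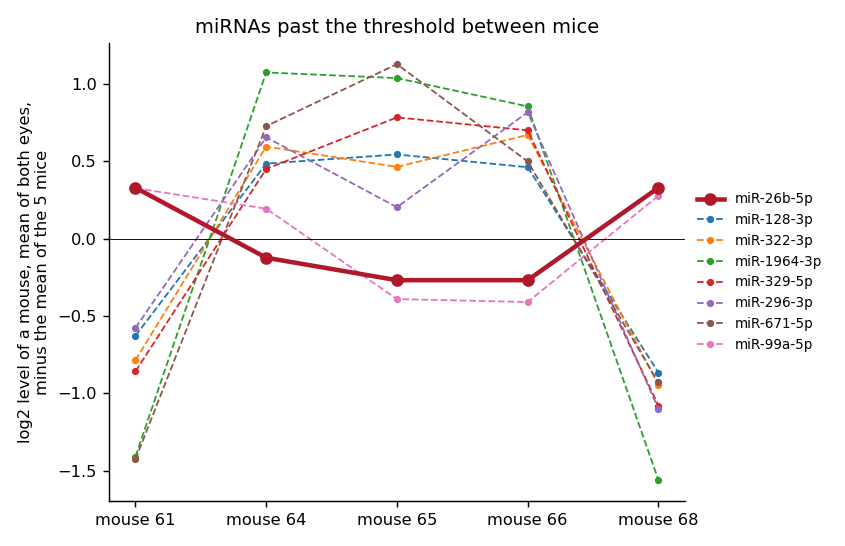
Level of each mouse (mean of both eyes, log2, minus the mean of the 5 mice; vertical axis) for the 8 miRNAs past the threshold between mice; lines join the values of 1 miRNA, and the mice have no order. miR-26b-5p (thick red) and miR-99a-5p have their highest values in mice 61 and 68, where the other 6 have their lowest.

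A part of the library profiles moved with miR-26b-5p. The first principal component of the 484 tested miRNAs, which held 23.1% of the variance, had an r of -0.93 with miR-26b-5p over the 10 libraries. The second, with 20.9%, had an r of 0.18. The scores on the first were -5.67 and -2.54 in the left and right retina of mouse 61, -5.27 and -3.42 in mouse 68, -0.40 and 0.82 in mouse 64, 2.55 and 3.06 in mouse 66, and 7.41 and 3.46 in mouse 65. The GC slope of a library, the change of its log2 values with the GC content of the mature miRNA, had an r of -0.41 with miR-26b-5p, whose own GC content is 33.3%. The part of either in the difference between mice was not tested beyond the value with the GC trend removed.

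Lists of miRNAs chosen for other tissues were compared with the same order of mice. Their miRNAs need not be confined to those tissues, so the sums do not measure tissue content. The summed level of the 4 miRNAs listed for pigment epithelium (both arms of miR-204 and miR-211) was 218022 to 218975 normalised reads in mouse 61 and 220695 to 224593 in mouse 68. It was 213995 to 216007 in mouse 64, 212718 to 216580 in mouse 65 and 209905 to 213349 in mouse 66, so this sum was highest in the mice with the most miR-26b-5p, and its part in that result was not tested. Within the sum, miR-204-5p was at 203500 in every library, so only the others could move it. miR-211-5p had a range of mouse means of 1.27 on the log2 scale, with an adjusted p by limma of 0.152 between mice. None of these 4 miRNAs was at 0 in all libraries, and 0 of the 4 passed between mice, where 1.65% of all tested did. The miRNAs listed for blood summed to 2573 to 2868 normalised reads in mouse 65 and to 3028 to 4444 in mouse 68, which did not overlap. Mice 61 (2630 to 3564), 64 (2680 to 3413) and 66 (2674 to 3108) overlapped with each other and with both. Most of this sum was miR-486a-5p, at 2686 ± 189 in left and 3341 ± 678 in right retinas (SD, n = 5). miR-451a was at 50.4 ± 18.4 and 46.8 ± 9.03 in the same order. The part of this sum in the miR-26b-5p result was not tested. The summed lens, cornea and epithelial miRNAs stood apart only in the right retina of mouse 65 (22626 normalised reads against 2122 to 2354 in the other right retinas). This sum was mostly miR-184-3p, at 6095 ± 9106 in right retinas, while miR-203-3p was at 203 ± 9.48 (SD, n = 5). Skeletal muscle miRNAs stood apart only in the left retina of mouse 68 (1742 against 295 to 381 in the other left retinas). miR-26b-5p had the same value in both eyes of mouse 65, and in mouse 68 it had the same values as in mouse 61. Its adjusted p between mice by limma was 0.00461 without mouse 65 and 0.0121 without mouse 68.

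miRNAs that act on the same pathways as the miR-26 family were read from the same fit. Of the 8 listed miRNAs of the REST and phosphatase circuit, 0 passed in either direction in right against left retina, as 0% of all 484 did; 2 lay above 0 and 6 below. Their median log2 fold change was -0.06, beside -0.01 over all 484. miR-124-3p, which represses the phosphatase of Ctdsp1, had left and right levels of 81711 ± 4510 and 82771 ± 3289 normalised reads (SD, n = 5). miR-9-5p, which represses REST, had levels of 53079 ± 4169 and 52742 ± 8563 in the same order. Of the 7 listed miRNAs reported to repress EZH2, 6 were tested and 0 passed; 2 lay above 0 and 4 below (median -0.04). let-7a-5p had 413985 normalised reads, the value of rank 4, in every left library and 393901 ± 27502 across right libraries. Its lowest value there, 363774, is that of rank 5, and its adjusted p by limma was 0.958. miR-101a-3p had left and right levels of 28456 ± 4216 and 25522 ± 4427 normalised reads (SD, n = 5). None of the 8 and none of the 6 passed between mice, beside 1.65% of all tested miRNAs, a share at which lists this short hold few calls or none.

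The miRNAs most like each varying member over the 10 libraries were taken from those with a mean of at least 100 normalised reads, by Pearson's r of the log2 values. For miR-26b-5p they were miR-140-5p (r 0.85), miR-99a-5p (0.85) and miR-301a-3p (0.85) of 254 compared, against a median r of 0.03. For miR-26b-3p they were miR-361-5p (0.75), miR-191-3p (0.73) and miR-1247-5p (0.73). For miR-26a-2-3p they were miR-708-3p (0.85), miR-128-3p (0.83) and miR-879-5p (0.81). For miR-26a-1-3p, with 6 values of 0, they were miR-3963 (0.80), miR-99a-3p (0.77) and miR-21a-5p (0.67). No miRNA was among the 3 most like of more than 1 member, and miR-128-3p, most like miR-26a-2-3p, had an r of -0.95 with miR-26b-5p.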

How the data were processed

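Small RNA was extracted from each retina with a column kit and made into libraries with the TruSeq Small RNA kit, per the labels' protocols. The submitters' processing notes name Bowtie, Partek, mm10 and GRCm38, with no version of a tool. For trimming, miRNA annotation and normalisation, the method is not given in the sources used here. Values deposited for each library are a signal, read counts normalised by the authors, 1 per mature miRNA and library. Sorted values were the same in all libraries at 342 ranks, and totals ran from 17312269 to 17312436, so the depth is unknown and no counting interval could be given.

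miRNAs with a mean of at least 10 (484 of 1061) were fitted with limma 3.58.1 in R 4.3.3 on log2(value + 1), with mouse as a block, a mean-variance trend and Benjamini-Hochberg adjustment over all tested. Fold changes are on that scale and understate changes of low miRNAs. The 5 miRNAs with identical values in all libraries were given a difference of 0 and could not pass. The block follows from both eyes being of 1 animal; the deviations of the 2 eyes from their side's means correlated across miRNAs by 0.0893 to 0.382, against -0.566 to 0.355 (median -0.124) for eyes of different mice, so the ranges overlapped. The mouse term was tested by limma's moderated F test. Ratios were compared with exact sign-flip tests over 5 mice. The fit was tested on simulated data. Those values had no steps of ranks, so that feature of the deposited values was not covered.

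Positions of the members in the table matched RefSeq for all 5 once its end was taken as 1 base further. RefSeq sequences matched 909 of the 1061 miRNAs by name, and 424 of the 484 tested. Named miRNAs are the members, the 3 most like each varying member, the 2 on either side of each 5p arm in mean level (ties included), those sharing a seed, and the 2 highest of each list; others are said to be chosen after their values were seen. Members and lists were chosen with earlier results of these data known. Other pseudocounts, filters, scaling, no block, no trend and leaving out each mouse were tried. The table held 0 columns of other samples.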

Additional observations from a re-analysis of the deposited data

Results flagged for a closer look

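A single value stood far from the others of its group. On the right side, miR-26a-1-3p was at 1.40 normalised reads in mouse 66 and listed at 0 in the other 4 mice; with the other 4 equal, any value above 0 exceeds Dixon's critical value. It lies among the lowest values of the table, where a value above 0 need not mean detection. It was the only such value in 12 groups checked. Chance marks about 1 in 20 groups, a rate that does not hold where the other values are all 0.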

How the results depend on the processing

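In the right-minus-left comparison, 0 miRNAs passed under each alternative run, with 5 to 63 at an unadjusted p under 0.05 by limma, the highest without mouse 65. With no replicate block the count stayed at 0 (13 at an unadjusted p under 0.05), the miR-26b arm ratio differed by -0.06 and the ratio of the miR-26a 3p arms by 0.11 (exact permutation test, two-sided, p = 0.778 and 0.849); it changed no other call. Leaving out each mouse in turn, the difference of miR-26b-3p ranged from -0.0275 to 0.11, that of the miR-26b arm ratio from -0.13 to 0.0031 and that of the miR-26a 3p ratio from -0.14 to 0.36, so their directions rested on single mice (below 0 for miR-26b-3p without mouse 64 or 68, above 0 for the arm ratio without mouse 68, below 0 for the 3p ratio without mouse 61 or 65). With the GC trend removed, an alternative added after seeing the data, the direction of miR-26b-5p turned, to 0.0436 right minus left. The alternatives for the mouse term were also added after seeing the data. It passed for 5 miRNAs without the mean-variance trend, and for 3 to 7 when each mouse was left out, with 4 without mouse 64 or 66, 5 without mouse 61 and 3 without mouse 68. The count was 10 with median-ratio size factors and 11 with the GC trend removed (424 tested). It was 11 with limma's robust setting and 12 without the miRNAs of identical values. The adjusted p of miR-26b-5p by limma ranged from 0.000849 to 0.0832 and passed in 12 of 14 alternatives, those without each mouse among them; the cause of the 2 losses was not tested. Rank-based values and the unknown depth limit what can be seen in all members, most of all in miR-26a-5p and the 3p arms of miR-26a.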
